A study of Equus caballus with 4 samples.

Results

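The genes of the muscle acetylcholine receptor and of the MUSK pathway that gathers it at the nerve contact were examined in differentiating equine satellite cells treated with gamma-oryzanol (GO). Members were the probes, controls left out, whose gene symbol in the array files was *chrna1*, *chrnb1*, *chrnd*, *chrng*, *chrne*, *musk*, *dok7*, *rapsn*, *agrn* or *lrp4*. The rule found 9 probes for 9 of the 10 genes, 1 probe for each gene, among 43603 probes and 14591 named genes, of which 5 were receptor subunits and 4 belonged to the MUSK pathway. No probe carried the symbol *agrn*. A probe listed as LOC100066334 has the gene number of *agrn* in the RefSeq gene table, and its values are given apart from the count. The rule goes by symbol and uses no measured value, but the members were chosen with earlier results of these data known.

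Rice bran is the usual source of GO, a lipid preparation made up of steryl esters of ferulic acid. Satellite cells are the stem cells of skeletal muscle, and in medium poor in serum they leave the cell cycle and fuse into myotubes. The cells came from the m. semitendinosus of young colts and were grown to near confluence before the switch to differentiation medium. GO-treated cells received 0.125 µM GO for 24 h from day 2 and were harvested on day 3 of differentiation, whereas control cells received only the vehicle, 0.04 µl/ml dimethyl sulfoxide, which the GO medium held as well. Per the study's methods, the culture with the best viability and fusion scores was chosen among those of the animals, so the cells are a selected culture without motor neurons. RNA of GO-treated cells (Cy5) and of control cells (Cy3) was hybridized together on each of 4 two-color arrays of 1 slide. The labels call the arrays biological replicates but do not say whether they stand for separate horses or cultures, and the p-values therefore measure only the spread between these samples, which may be technical. The dyes were never swapped, so a dye effect on a probe and the effect of GO cannot be told apart.

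The muscle acetylcholine receptor is a pentameric ion channel that opens when the motor neuron releases acetylcholine. Fetal and denervated muscle builds it from alpha, beta, delta and gamma subunits, and after innervation the epsilon subunit takes the place of gamma. The nerve secretes agrin, which binds LRP4 on the muscle surface. LRP4 then activates the receptor tyrosine kinase MUSK with help from the adaptor DOK7, and the scaffold protein rapsyn holds the receptors in clusters. The subunit genes carry E-boxes that myogenic factors such as myogenin bind, and their transcription rises when myoblasts fuse.

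Each gene was read by a single 60-base probe, so the sequences of those that carry the comparison between receptor subunits and *musk* are shown, with their positions on EquCab1 as the files give them. Letters are in lower case because no part of a probe is marked out. They are written 5′ to 3′ as in the files, which list the coordinates in ascending order for *chrnb1*, *chrnd*, *chrng* and *chrne* and in descending order for *chrna1* and *musk*.
*chrna1*, chr18:41938387-41938446: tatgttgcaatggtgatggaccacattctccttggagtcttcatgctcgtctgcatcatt
*chrnb1*, chr11:49236420-49236986: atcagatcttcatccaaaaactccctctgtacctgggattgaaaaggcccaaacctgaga
*chrnd*, chr6:19641367-19642215: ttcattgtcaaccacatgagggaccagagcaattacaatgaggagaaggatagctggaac
*chrng*, chr6:19651906-19651965: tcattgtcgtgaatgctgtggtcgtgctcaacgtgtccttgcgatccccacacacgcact
*chrne*, chr11:48423240-48423299: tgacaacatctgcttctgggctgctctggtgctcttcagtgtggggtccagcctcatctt
*musk*, chr25:19672279-19672338: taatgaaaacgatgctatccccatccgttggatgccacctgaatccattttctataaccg

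All 9 probes and that of *agrn* were assigned by the files to an Ensembl transcript, hence to exons, and the files do not state whether a probe lies in a coding or an untranslated part. The probe of *chrnb1* covered 567 bases of genome and that of *chrnd* 849 bases, so both spanned an exon junction. The probes of *chrnd* and *chrng* lay 9.69 kb apart on chromosome 6. The probes of *chrnb1* and *chrne* shared chromosome 11 but were 813 kb apart, and those of *rapsn* and *lrp4* shared chromosome 12 at a distance of 436 kb. Homologous as the subunits are, the longest run of bases common to any pair among the 10 probes was 8 bases.

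Expression was read as processed signal, the background-corrected and dye-normalized intensity of each channel, and as the log2 ratio of GO over control on each array. Testing was limited to the 26834 probes that stood well above background throughout the 4 arrays in the control or the GO channel, among them 8 of the 9 member probes. A call required both an adjusted p no higher than 0.05 (limma, Benjamini-Hochberg adjustment over all probes tested) and a change of 1.3-fold or more, equal to 0.38 on the log2 scale. Over all tested probes 8.94% were called, 5.61% as lower and 3.33% as higher in GO-treated cells, and the median log2 ratio was 0.00. Between 57.4% and 68.9% of probes were well above background per array and channel, and no spot was saturated.

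The alpha and beta subunits and *musk* gave lower signals in GO-treated than in control cells, in a design without a dye swap. These 3 of the 8 tested genes were called, all of them lower, which is 2 of the 5 receptor subunits and 1 of the 3 tested MUSK pathway genes, beside the 5.61% of tested probes called lower. None of the 3 calls held under every processing tried, and the probes of *chrnb1* and *musk* were dim. Transcripts of the gamma and delta subunits were lower on 3 arrays and slightly higher on array 1, and neither was called. The epsilon subunit was the single member higher on every array, by a small amount that was not called. *dok7* and *lrp4* had ratios close to 0, and *rapsn* was not well above background on any array.

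**Figure D1:**
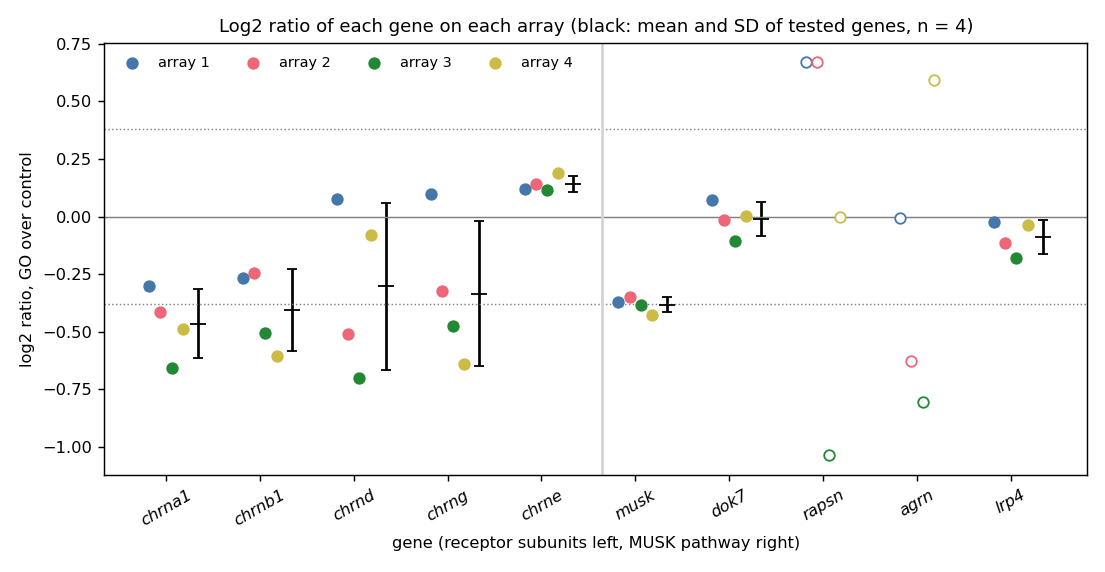
Log2 ratio of GO over control (vertical axis) for each gene (horizontal axis), with 1 point per array colored by array, open points for the genes that were not tested, and black bars for the mean ± SD of the tested genes (n = 4). Dotted lines mark the fold change of 1.3 in either direction. *chrna1*, *chrnb1* and *musk* lie below 0 on every array and *chrne* above 0 on every array, while array 1 stands above the other arrays for *chrnd* and *chrng*.

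The alpha subunit, encoded by *chrna1*, holds the main part of each acetylcholine binding site and occurs in fetal and adult receptors alike. Its processed signal was 6092, 6169, 7944 and 6152 in control cells on arrays 1 to 4 and 4944, 4631, 5041 and 4389 in GO-treated cells. Every GO signal was below every control signal, a separation found in this direction for 5.39% of tested probes. The log2 ratio was -0.46 ± 0.15 (SD, n = 4; 95% interval -0.64 to -0.29), a 1.38-fold lower level in GO-treated cells with an adjusted p of 0.0109 (limma). Its size was largest on array 3, at -0.66, and smallest on array 1, at -0.30.

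The beta subunit gene *chrnb1*, also part of both receptor forms, gave control signals of 57.2, 70.7, 46.9 and 50.8 and GO signals of 47.5, 59.7, 33.1 and 33.4. Each array showed a lower GO signal than control signal, although the ranges of the channels overlapped over the arrays. The log2 ratio was -0.41 ± 0.18 (SD, n = 4; 95% interval -0.60 to -0.21; 1.32-fold lower; adjusted p of 0.0206, limma). The raw signal of this probe was only 2.01 to 3.52 times the local background over all arrays and channels. Normexp corrects the background and here adds an offset of 50, close to the signals of this probe. With it the log2 ratio was -0.17 and the gene was not called (adjusted p of 0.0838, limma). Such an offset by itself draws the ratio of a dim probe toward 0, and its part in the change was not tested. Without array 2, 3 or 4 the adjusted p was 0.0530, 0.0805 and 0.0547, respectively (limma), so the call needed each of them. Without array 3 or 4 the log2 ratio was also short of the fold threshold, at -0.37 and -0.34.

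The gamma subunit gene *chrng* marks the fetal form of the receptor and is silenced in innervated muscle. Control signals were 9968, 15044, 10916 and 10391 and GO signals 10657, 12032, 7857 and 6678. On arrays 2, 3 and 4 the GO signal was below that of control cells, with log2 ratios of -0.32, -0.47 and -0.64, whereas on array 1 the ratio was 0.10. The mean was -0.33 ± 0.31 (SD, n = 4; 95% interval -0.62 to -0.05), and the gene was not called (adjusted p of 0.0970, limma). Array 1 decided this: without it the log2 ratio was -0.48 and the gene was called (adjusted p of 0.0272). With centering on the median in place of lowess it was smaller, at -0.20 (adjusted p of 0.201).

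The delta subunit gene *chrnd*, the neighbor of *chrng* in the genome, had control signals of 370, 644, 918 and 484 beside GO signals of 390, 453, 564 and 459. Arrays 2 and 3 had the lower ratios, -0.51 and -0.70, and arrays 1 and 4 were at 0.08 and -0.08. The mean of -0.30 ± 0.36 (SD, n = 4; 95% interval -0.62 to 0.02) was within the spread between arrays (adjusted p of 0.156, limma), and without array 3 it was -0.17. Array 4 thus separated the neighbors, being the lowest ratio for *chrng* and close to 0 for *chrnd*. The difference between their log2 ratios, delta minus gamma, was 0.03 ± 0.36.

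The epsilon subunit gene *chrne*, which defines the adult receptor, gave control signals of 130, 173, 126 and 122 and GO signals of 141, 191, 136 and 139. GO-treated cells were higher on each array, at log2 ratios of 0.12, 0.14, 0.12 and 0.19, although the ranges of the channels overlapped. The mean was 0.14 ± 0.03 (SD, n = 4; 95% interval 0.01 to 0.27), below the fold threshold and not called (adjusted p of 0.115, limma), and 0.09 with normexp. Higher ratios on all 4 arrays were found for 22.1% of tested probes. The raw signal of *chrne* was 5.19 to 7.40 times the local background over all arrays and channels.

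**Figure D2:**
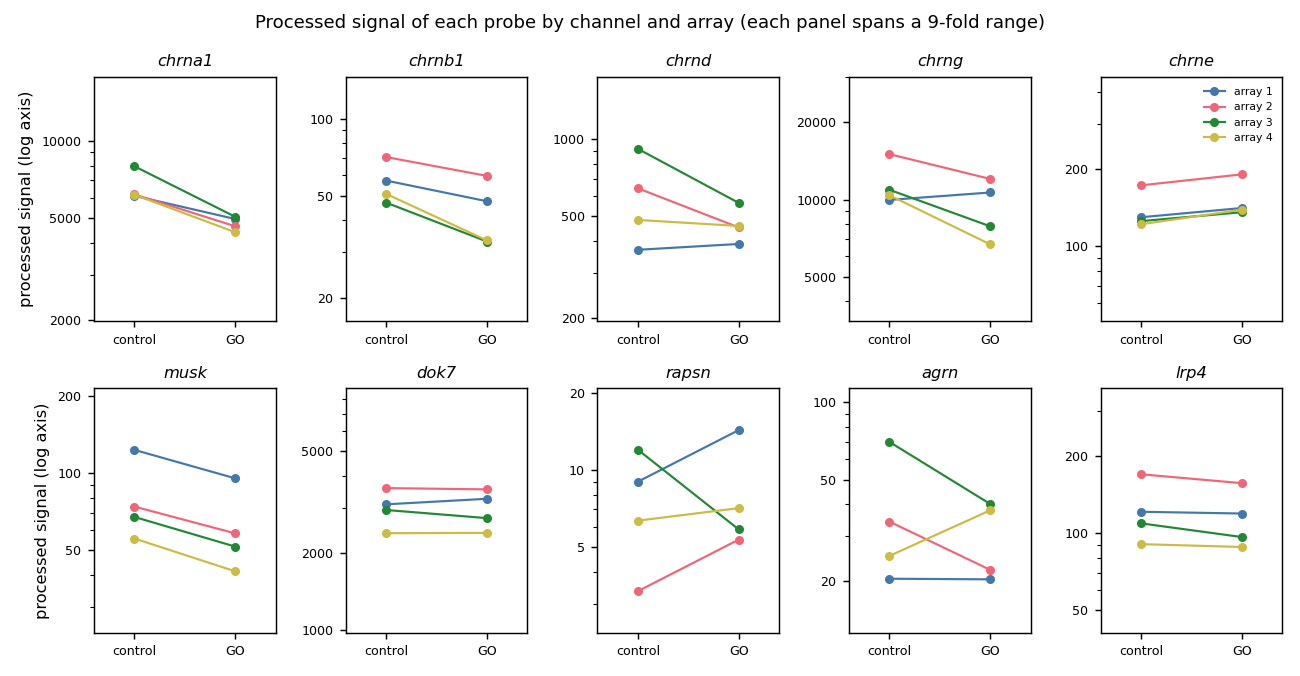
Processed signal (vertical axes, log scale, each spanning a 9-fold range) of each gene's probe in control and GO-treated cells (horizontal axes), with a line joining both channels of an array and 1 color per array. All 4 lines slope down for *chrna1*, *chrnb1* and *musk* and up for *chrne*, and in *chrnd* and *chrng* the line of array 1 alone rises. The signals of *rapsn* were not well above background in any channel.

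Since fetal and adult receptors differ in the gamma and epsilon subunit, the ratios of *chrng* and *chrne* were set against each other within each array. The log2 ratio of *chrng* minus that of *chrne* was -0.02, -0.46, -0.59 and -0.83 on arrays 1 to 4, below 0 on all of them but nearly 0 on array 1. Its mean was -0.48 ± 0.34 (SD, n = 4), with p = 0.125 in an exact two-sided sign-flip permutation test. That is the smallest p 4 arrays can give, so this test could not reach 0.05. With normexp the mean difference was -0.44 and with centering on the median in place of lowess it was -0.30, and under both array 1 crossed to the other side of 0, at 0.06 and 0.00 (p = 0.25 each, exact permutation test). The alpha and beta subunits differed from epsilon on each array, *chrna1* by -0.61 ± 0.15 and *chrnb1* by -0.55 ± 0.20 on the log2 scale.

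*musk* encodes the receptor tyrosine kinase on which postsynaptic assembly depends. Its signals were 123, 73.8, 67.2 and 55.4 in control cells and 95.1, 58.0, 51.5 and 41.2 in GO-treated cells. Array 1 was brighter than the other arrays in both channels and the ranges of the channels overlapped, but the log2 ratio within an array varied little, at -0.37, -0.35, -0.39 and -0.43. The mean was -0.38 ± 0.03 (SD, n = 4; 95% interval -0.51 to -0.25; adjusted p of 0.00791, limma). At 1.303-fold lower it lay just past the fold threshold, and it missed that threshold without array 4, at -0.37, or with the arrays weighted by quality, at -0.377, beside a threshold of 0.3785 in size. With normexp the log2 ratio was -0.20, and the raw signal of this dim probe was 2.44 to 5.97 times the local background. The study placed *musk* on its own list of changed genes from these arrays, so the call is not independent evidence.

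*lrp4*, the agrin receptor, gave control signals of 121, 170, 109 and 90.4 and GO signals of 119, 157, 96.4 and 88.2. GO-treated cells were lower on each array, as were 21.5% of tested probes, and the mean log2 ratio was -0.09 ± 0.07 (SD, n = 4; 95% interval -0.23 to 0.05; adjusted p of 0.323, limma). *dok7*, the adaptor inside the cell, gave 3098, 3584, 2944 and 2390 in control cells and 3256, 3544, 2736 and 2396 in GO-treated cells. Its ratios of 0.07, -0.02, -0.11 and 0.00 lay on both sides of 0, with a mean of -0.01 ± 0.07 (SD, n = 4; 95% interval -0.15 to 0.13; adjusted p of 0.910, limma). The intervals of both genes leave out a change of 1.3-fold but measure only the spread between arrays, which may be technical. With the channels as separate samples they ran from -0.53 to 0.36 for *lrp4* and from -0.40 to 0.38 for *dok7*. Both of these included such a change.

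The probe of *rapsn*, which encodes rapsyn, had signals of 3.36 to 12.0 in control cells and 5.34 to 14.3 in GO-treated cells and was not well above background in either channel on any array. The probe of *agrn* was well above background on 3 arrays in control cells and 2 in GO-treated cells. Its log2 ratios of -0.01, -0.63, -0.81 and 0.59 went both ways, and neither gene was tested.

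Ordered by their log2 ratios, the genes ran from *chrna1* through *chrnb1*, *musk*, *chrng*, *chrnd*, *lrp4* and *dok7* to *chrne*. The neighbors from *chrna1* to *chrnd* did not differ beyond their spread, with differences between neighbors of -0.06 ± 0.13, -0.02 ± 0.15, -0.05 ± 0.30 and -0.03 ± 0.36. *chrnd* and *lrp4* differed by -0.21 ± 0.29, again within the spread. *lrp4* lay below *dok7* on each array, by -0.08 ± 0.03, and *dok7* below *chrne*, by -0.15 ± 0.07. Within the MUSK pathway, *musk* lay below *dok7* on each array, by -0.37 ± 0.08.

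As groups, the 5 receptor subunits had a mean log2 ratio of -0.06, -0.27, -0.44 and -0.32 on arrays 1 to 4, and the 3 tested MUSK pathway genes one of -0.11, -0.16, -0.22 and -0.15. The receptor mean minus the pathway mean was 0.05, -0.11, -0.22 and -0.17. It averaged -0.11 ± 0.12 (SD, n = 4), which did not exceed the spread between arrays, and array 1 had the opposite sign to the other arrays. With normexp the difference was below 0 on all 4 arrays, at -0.15 ± 0.09, and without array 1 it was -0.17 ± 0.06 (SD, n = 3), both larger than their spread. With centering on the median it was -0.06 ± 0.10 (SD, n = 4), and array 1 was at 0.07. Without array 2, 3 or 4 it was -0.11 ± 0.14, -0.08 ± 0.11 and -0.09 ± 0.14 (SD, n = 3). These values were all within their spread. The variation within each group was wider than the gap between them, from -0.46 to 0.14 among receptor subunits and from -0.38 to -0.01 among pathway genes.

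**Figure D3:**
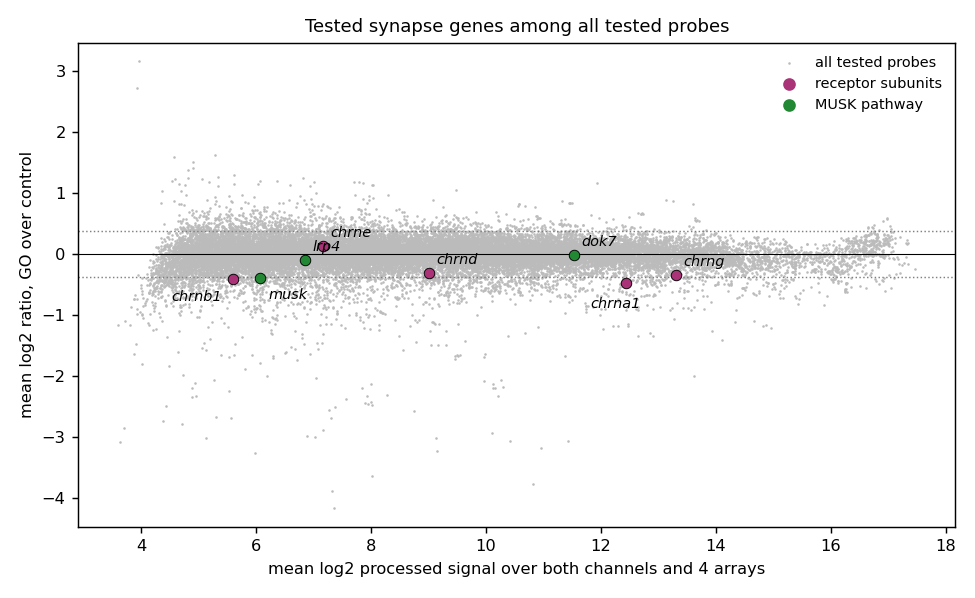
Mean log2 ratio of GO over control (vertical axis) against mean log2 processed signal over both channels and 4 arrays (horizontal axis) for all 26834 tested probes (grey), with receptor subunits in purple and MUSK pathway genes in green. Dotted lines mark the fold change of 1.3 in either direction. *chrna1* and *chrng* are among the brighter probes, whereas *chrnb1* and *musk* are among the dim ones.

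The probes differed in brightness. By mean signal *chrna1* was brighter than 87.3% and *chrng* brighter than 92.1% of tested probes, and the raw signal of *chrna1* was 116 to 285 times the local background. *chrnb1* and *musk* were brighter than only 12.5% and 18.0% of tested probes, and *chrne* than 31.2%. The log2 ratio of *chrna1* was -0.50 with normexp and -0.41 with centering on the median, so its value moved little, whereas those of *chrnb1* and *musk* ran from -0.17 to -0.51 and from -0.20 to -0.50 over the same settings. The offset in normexp draws the ratios of dim probes toward 0 more than those of bright ones. Of the 3 genes called lower, none was called in every setting. Testing all probes without the filter on dim ones put *chrna1* at an adjusted p of 0.0618 (limma), and the plain one-sample test put it at 0.0920.

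**Figure D4:**
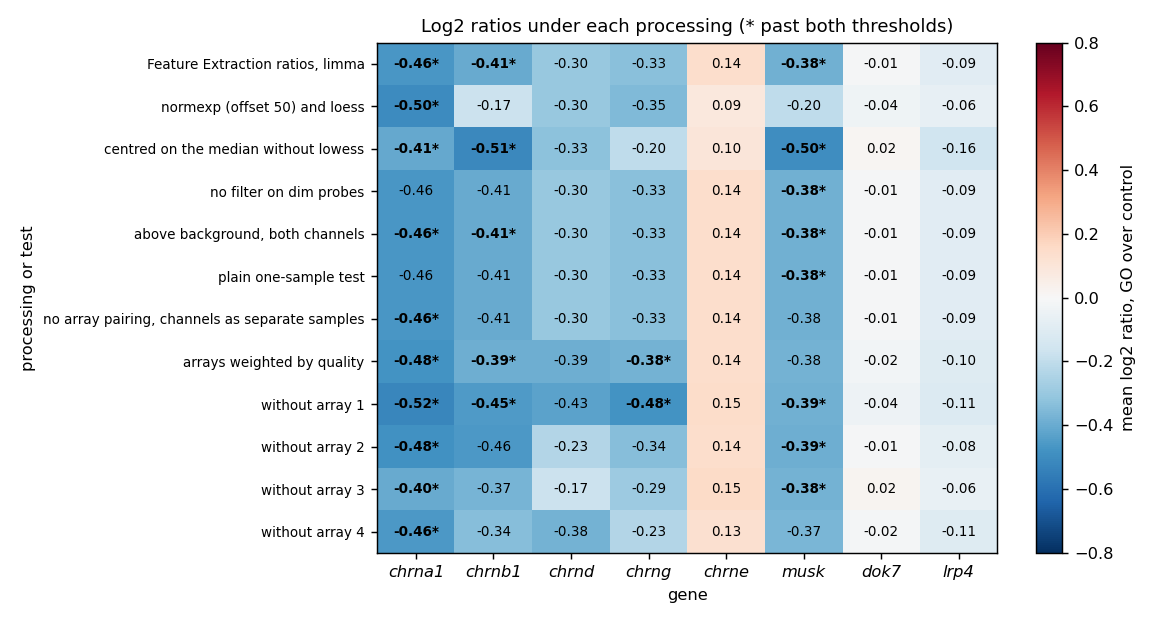
Mean log2 ratio of GO over control (color and printed value) of the 8 tested genes (columns) under each processing, test or omission of an array (rows), with an asterisk where a gene passed both thresholds. *chrna1*, *chrnb1*, *chrnd*, *chrng*, *musk* and *lrp4* stay below 0 and *chrne* above 0 in every row, the asterisks change between rows, and *dok7* changes sign.

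The genes around the receptor were then counted from lists of related function, by the brightest probe of each gene. Over all 9502 named genes tested, 8.67% were called, 5.37% as lower and 3.30% as higher, with a median log2 ratio of 0.00. Among the genes of acetylcholine turnover, 3 of 6 with a probe were tested and 1 was called. This was *bche*, which encodes butyrylcholinesterase, an enzyme that hydrolyzes acetylcholine and other choline esters. Its log2 ratios were -0.67, -0.61, -0.93 and -0.90, with a mean of -0.78 ± 0.16 (SD, n = 4; adjusted p of 0.00321, limma), and -0.31 with normexp, short of the fold threshold. The gene of the synaptic acetylcholinesterase, *ache*, had a ratio of 0.19 on array 1 and of -0.33, -0.31 and -0.69 on the other arrays and was not called (mean -0.28 ± 0.36; adjusted p of 0.179, limma), but without array 1 it was called at -0.44 (adjusted p of 0.0442), and *colq*, which encodes its collagen tail, was not well above background on any array.

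Of 25 tested genes that pass on the signal of MUSK, 1 was called lower, beside 5.37% of all named genes tested. The median log2 ratio of the list was -0.05, with a range from -0.62 to 0.32. On all arrays, 25 genes of this list were well above background in control cells and 22 in GO-treated cells. The called gene was *sorbs2*, which encodes an adaptor protein that binds actin regulators and ABL kinases. It had log2 ratios of -0.75, -0.64, -0.69 and -0.41 (mean -0.62 ± 0.15; SD, n = 4; adjusted p of 0.00535, limma) and -0.17 with normexp. None of the 10 tested genes of the synaptic scaffold and matrix was called, nor any of the 7 tested genes of receptor assembly and glycosylation or of the 3 tested of the neuregulin route. Their medians were -0.03, 0.04 and -0.02. In the scaffold and matrix list *dag1*, which encodes dystroglycan, and the syntrophin gene *sntb1* were both called lower with centering on the median and again without array 1, named here after their values were seen. The neuregulin receptor genes *erbb2*, *erbb3* and *erbb4* did not stand above background throughout either channel and were not tested.

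Transcription factors and deacetylases that act on the receptor genes included 2 called genes among 9 tested, both lower, and the list's median was -0.25. *myf5*, a myogenic determination factor, had log2 ratios of -0.97, -0.88, -0.96 and -0.90 (mean -0.93 ± 0.04; SD, n = 4; adjusted p of 0.00102, limma). *myog*, which encodes myogenin, the factor of terminal differentiation that binds the E-boxes of subunit genes, had -0.26, -0.46, -0.51 and -0.35 (mean -0.40 ± 0.11; adjusted p of 0.0123, limma). Its 2 probes gave means of -0.40 and -0.36. With normexp *myog* was at -0.35, short of the fold threshold, and without array 2 or 3 its adjusted p was 0.0649 and 0.0544, so its call was lost in each case. *myf5* was on the study's own list of changed genes from these arrays, so its call here is not independent evidence. The study did not list *myog*, which by its account fell short of the fold threshold on the arrays. By quantitative PCR the study reported both *myf5* and *myog* as lower in GO-treated cells. The neuronal nicotinic subunits, which form receptors of nerve cells, had 4 tested genes of 9 with a probe, with none called and mean log2 ratios from 0.06 to 0.12. Those of *chrnb3*, *chrna7* and *chrna10* fell below 0 with centering on the median.

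**Figure D5:**
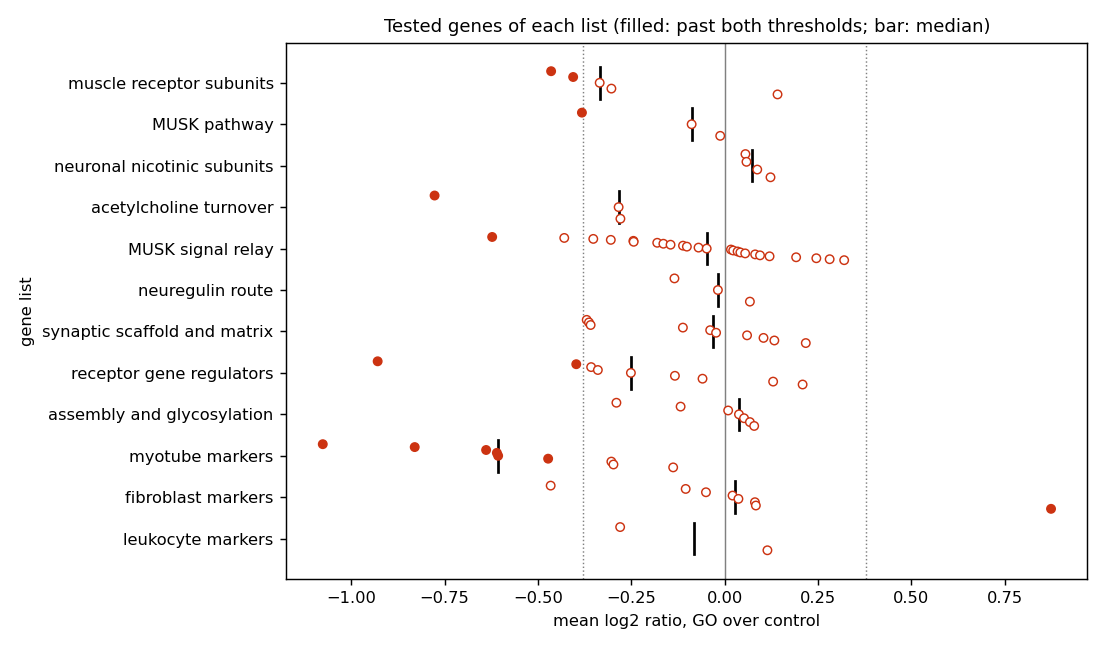
Mean log2 ratio of GO over control (horizontal axis) of each tested gene, 1 point per gene by its brightest probe, for the receptor subunits, the MUSK pathway and each related list (vertical axis). Filled points passed both thresholds, black bars are medians, and dotted lines mark the fold change of 1.3. The myotube markers have the lowest median, -0.61, with 6 of 9 genes filled, but a median of -0.19 with centering on the median in place of lowess.

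Most markers of myotubes were lower in GO-treated cells as well. All 9 markers with a probe were well above background in both channels on every array, and 6 were called, all lower. They were led by the perinatal and embryonic myosin heavy chains *myh8* at -1.08 ± 0.43 and *myh3* at -0.83 ± 0.19, the skeletal actin *acta1* at -0.64 ± 0.22 and desmin, *des*, at -0.61 ± 0.24 (SD, n = 4; adjusted p of 0.00823, 0.00338, 0.00825 and 0.0113, limma). The median of the list was -0.61, and its summed signal ran from 220797 to 298594 in control cells and from 134313 to 186604 in GO-treated cells, with no overlap. Normexp kept the count at 6, with a median of -0.49. Centering on the median in place of lowess left all 9 markers below 0 but only *myh8* called, with *myh3* at -0.19, *acta1* at -0.11 and *des* at -0.37, and brought the median of the list to -0.19. In these bulk RNA samples, fewer myotubes and less RNA of a gene per myotube cannot be told apart, and the part of the myotube markers in the receptor values was not tested.

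Array 1 stood out for most myotube markers as it did for *chrnd* and *chrng*. Its log2 ratio was the highest of the 4 arrays for 8 of the 9 myotube markers and for 5 of the 8 tested synapse genes, beside 31.3% of all tested probes. The exception among the markers was *myh8*, whose ratio was lowest on array 1, at -1.63, and highest on array 4, at -0.61. The ratios of array 1 correlated least with those of array 4 across tested probes (Pearson r = 0.445, across genes, which are not independent replicates), and the other pairs of arrays lay between 0.60 and 0.68.

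The fibroblast markers depended on the scaling. Of 8 tested fibroblast markers 1 was called, *pdgfra*, a growth factor receptor gene, with log2 ratios of 0.48, 0.90, 0.58 and 1.54 (mean 0.87 ± 0.48; SD, n = 4; adjusted p of 0.0198, limma). It was 0.37 with normexp, short of the fold threshold, and had an adjusted p of 0.0741 without array 2, and neither setting called it. The summed fibroblast signal overlapped, at 311522 to 483846 in control and 324780 to 439812 in GO-treated cells. The median of that list was 0.03, with 5 of 8 genes above 0. It was 0.21 with normexp and 0.61 with centering on the median, with 7 of 8 genes above 0 in both, and centering called 5 of them higher and 1 lower. Among them *col3a1* went from -0.10 to 0.78, *dcn* from 0.04 to 0.70 and *col1a2* from -0.05 to 0.95. With the deposited ratios, different probes of these genes disagreed as well. They ran from -0.18 to 0.37 for *col3a1*, from 0.04 to 0.42 for *dcn* and from -0.42 to -0.05 for *col1a2*. Both tested leukocyte markers, *cd68* and *cd14*, were not called, and *cd3e*, *cd79a*, *lyz* and *itgam* were not well above background on any array. Their summed signal was 4209 to 5005 in control and 4442 to 5275 in GO-treated cells. None of the 9 markers of Schwann cells and neurons with a probe, of the 5 of endothelium or of the 4 of adipocytes was well above background on all arrays of a channel. The Schwann cell genes *sox10* and *mpz* and the endothelial genes *pecam1* and *cdh5* were above it on no array, and the part of other cells in the receptor values was not tested.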

How the data were processed

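RNA of GO-treated and control equine satellite cells was compared on 4 two-color horse arrays. The authors processed the scans with Feature Extraction (version 10.10.1.1 in the file headers). The deposited intensity values are, per the file headers, raw mean signals, local backgrounds and processed signals, which are corrected for background and spatial trend and normalized between dyes (linear and lowess). The deposited log10 ratios are those of processed Cy5 over Cy3, and the same values fill the series-wide table (180880 of 180880 equal). RNA with an integrity number of at least 9.2 was used.

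The log10 ratios were converted to log2. Control and outlier spots were left out and spots of 1 probe averaged. The 4 log2 ratios were tested against 0 with limma (version 3.58.1; R 4.3.3; lmFit on an intercept and eBayes, two-sided) over the 26834 probes well above background on all arrays of a channel, with Benjamini-Hochberg adjustment. The thresholds are those of the methods, which do not name the test, and the calls depended on that choice. Limma called 2399 probes and the plain one-sample test 147, and the study's list of changed transcripts was shorter than either. Of the tested members the plain test called *musk* alone, with *chrna1* at an adjusted p of 0.0920 and *chrnb1* at 0.119. For *musk* the study's adjusted p was closer to the 0.0427 of the plain test than to the 0.00791 of limma. The ratio pairs both channels of an array. The code was tested on simulated data. The slide held all 4 arrays and could not be tested as a batch. The number of arrays limits the precision. Symbols came from the files and, by gene number or accession, from the RefSeq table of the TB-T2T assembly, used for names only, and the brightest probe stood for a gene. Signals of different probes were set against each other only as a rank of probe brightness, not as levels of transcripts. The members, the gene lists and the rule for naming genes (every member, and up to 4 called genes of each list) were chosen with earlier results of these data known. Genes named although not called were chosen after their values were seen. Alternatives were normexp (offset 50) with loess, centering on the median, other filters, a plain one-sample test, channels as separate samples, array weights and leaving out each array. Figures were drawn with matplotlib.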

Additional observations from a re-analysis of the deposited data

Results flagged for a closer look

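In 2 of 30 groups of 4 signals, 1 array lay far from the other arrays by Dixon's criterion, which chance alone meets in about 1 in 20 groups. The control signal of *chrna1* was 12.96 on the log2 scale on array 3, above the other control signals, with a gap of 0.953 of the group's range. The signal of *chrne* in GO-treated cells was 7.58 on the log2 scale on array 2, above the other GO signals, with a gap of 0.889 of the range. The control signal of *chrne* was the highest on array 2 as well.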

How the results depend on the processing

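Of the 8 tested genes, 3 passed both thresholds. That count was 1 with normexp and loess (*chrna1*), 1 without the filter on dim probes (*musk*), 1 with a plain one-sample test (*musk*; adjusted p of 0.0427) and 1 without the replicate block, that is with the channels as separate samples in place of the array pairing (*chrna1*; *chrnb1* at an adjusted p of 0.271 and *musk* at 0.473, limma). It was 3 with centering on the median, with the filter on both channels and with weighted arrays, which brought in *chrng* and left out *musk*. Leaving out each array in turn gave 1 to 4, the 1 without array 4. The cause was not tested. Without the filter, 43603 probes entered both the limma fit and the adjustment, and unadjusted p-values moved both ways. That of *chrna1* rose from 0.000486 to 0.00369 and that of *musk* fell from 0.000267 to 5.16e-05 (limma). The sign of *dok7* reversed with centering on the median, at 0.017, and without array 3, at 0.020, within a range of -0.040 to 0.020 when each array was left out. Over all tested probes 2399 were called, beside 1308 with normexp, 3305 with centering on the median, 908 without the filter, 147 with the plain test, 922 without the block and 1566 without array 2. *chrng* minus *chrne* and the receptor mean minus the pathway mean kept the sign of their means with normexp, with centering on the median and without each array. Low signal over background limits *chrnb1*, *musk*, *lrp4* and *chrne*, and *rapsn* and *agrn* could not be tested.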
